A study of Mus musculus with 36 samples.

Results

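Clpx, Lgalsl, Dnmt3b and Lingo4 were picked because their transcripts cycled strongly in mouse liver while none of them belongs to the circadian clock itself. The members are 4 of the 19057 genes with a symbol on the array, chosen by that symbol and read by 8 of its 45281 probes, and the liver rhythm that chose them is described here without a test. Tests asked whether the same genes cycle in inguinal and brown fat and how they differ with age. Their mean levels were also compared between tissues. The choice named only the liver rhythm, but it was made with earlier results of these data known. The tests in the fats are therefore not wholly independent of it. A strong liver rhythm also needs a liver signal above background, so levels in liver are not independent of the choice.

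The series holds 36 bead arrays (Illumina MouseWG-6 v2) of male C57BL/6J mice fed chow ad libitum, with 12 arrays each for inguinal white fat, brown fat and liver. Each tissue was taken at 5 months of age (young) or 24 months (old), at 0, 4, 8, 12, 16 and 20 h after 5 days in constant dim red light, so the 6 groups hold 6 arrays each and every combination of tissue, age and hour was measured on 1 array. Per the labels 3 mice stand behind each array, and pooling is not stated. P-values here measure the spread between arrays, within which the spread between single mice cannot be told apart. The design text spaces the harvests 4 h apart, as do the sample labels, and the treatment protocol gives 3 h. The sample labels were used. The labels name no genotype beyond the strain and no drug.

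Values are the deposited intensities on a linear scale. Tests used log2 of the intensity plus 16, with values below 0 set to 0, on which an intensity of 0 becomes 4. A probe counted as above background over an intensity of 8.80. The arrays had been brought to a common distribution, with 50.8 to 51.1% of probes above background. The defining markers of each tissue were present. Each of 8 hepatocyte markers rose above background on some array of young and of old liver, as did each of 7 adipocyte markers in both fats and each of 5 brown adipocyte markers in brown fat. Skeletal muscle markers were also present, with a mean log2 level over 7 markers of 12.6 to 13.8 in brown fat, 7.07 to 14.6 in inguinal fat and 4.31 to 9.29 in liver. The 8 hepatocyte markers had summed intensities of 8315 to 25654 in inguinal fat and 2047 to 8916 in brown fat. In liver these were 179415 to 205656. Alb, 1 of these markers, was never above background in either fat, and the source of the signal there was not tested. In these bulk tissues, fewer cells of a type and less RNA per cell cannot be told apart.

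The liver clock runs as a loop in which BMAL1, encoded by Arntl, acts with CLOCK at E-box sequences to drive the Per and Cry repressors and the REV-ERB receptors (Nr1d1, Nr1d2), which in turn repress Arntl. Many metabolic genes follow this loop in liver, and which genes follow it differs from tissue to tissue. CLPX is the unfolding ATPase of the mitochondrial matrix that feeds proteins to the CLPP protease and, in yeast, activates the first enzyme of heme synthesis. LGALSL is a small galectin-related protein, DNMT3B writes new DNA methylation, and LINGO4 is a membrane protein with leucine-rich repeats and an immunoglobulin domain, related to LINGO1 of the nervous system.

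On assembly GRCm38.p6 Clpx lies on chromosome 9 (65294251 to 65330658, + strand), Lgalsl on chromosome 11 (20823355 to 20831916, - strand), Dnmt3b on chromosome 2 (153649411 to 153687730, + strand) and Lingo4 on chromosome 3 (94399219 to 94404501, + strand). Their promoters were read from RefSeq as 300-base windows, 250 bases before the start and 50 after it, and all 4 members matched. The start is that of the promoter table, which lies 9 bases inside the locus given above for Clpx, 38 for Dnmt3b and 808 for Lgalsl, and at its first base for Lingo4. The 2 windows below are shown because their genes peaked at different hours in liver and differ in base composition, with the 250 bases before the start printed 5′ to 3′ and the motif match in capitals.
Clpx (GRCm38.p6 chr9:65294010-65294259, + strand): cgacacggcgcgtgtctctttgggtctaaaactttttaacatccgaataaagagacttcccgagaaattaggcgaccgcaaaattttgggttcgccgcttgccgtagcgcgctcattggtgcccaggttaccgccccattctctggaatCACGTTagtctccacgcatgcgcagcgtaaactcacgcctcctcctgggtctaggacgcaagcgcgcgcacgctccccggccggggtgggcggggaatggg
Lingo4 (GRCm38.p6 chr3:94398969-94399218, + strand): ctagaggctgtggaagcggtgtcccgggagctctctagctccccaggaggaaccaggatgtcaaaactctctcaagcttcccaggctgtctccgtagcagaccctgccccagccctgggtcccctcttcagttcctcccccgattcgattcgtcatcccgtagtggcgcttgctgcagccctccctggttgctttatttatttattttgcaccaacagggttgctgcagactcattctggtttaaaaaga

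The Clpx window held 1 match to AACGTG, a variant of the E-box, on the opposite strand (printed as CACGTT), 101 bases before the start, and 4.68% of 32851 promoter windows of that length hold this motif on either strand. No member window held CACGTG, the canonical E-box, present in 7.15% of all windows, or AGGTCA, the half-site of ROR and REV-ERB receptors, present in 16.3%. TAGGTCA, a longer form of AGGTCA that overlaps it, occurs in 2.61% of all windows, the D-box sequences TTATGTAA and TTACGTAA in 0.938% and 0.119%, and the cAMP response element TGACGTCA in 1.79%, and the member windows held none of these. Both strands were searched. The Lingo4 window was 51.7% G and C with 8 CG pairs, near the median of all windows (52.7% and 7 pairs), whereas the Clpx window had 60.0% and 28 pairs, the Dnmt3b window 76.0% and 30 pairs, and the Lgalsl window 76.3% and 41 pairs. A match is a string of letters and not a measured binding site.

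In liver Clpx was high around the last and first harvests and low in the middle of the series. From 0 to 20 h its intensity was 2458, 1643, 786, 783, 1364 and 3303 in young mice, and 3005, 1486, 780.3, 826, 1746 and 2953 in old mice. Both ages had their 2 lowest values at 8 and 12 h and their 2 highest at 20 and 0 h. The second Clpx probe gave 1840.2, 1505, 634, 599, 1091 and 2126 in young and 1960.0, 1336, 581, 536, 1302 and 2087 in old liver, with the highest value at 20 h and the lowest at 12 h in both ages. A cosine of 24 h fitted to the brighter probe had an amplitude, the log2 distance from mean to peak, of 1.07 ± 0.06 (SE, 12 arrays) and peaked at 21.9 ± 0.2 h, a 4.42-fold swing from trough to peak. That amplitude ranked 61 among 15813 genes measured in liver.

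Lgalsl had nearly the same liver pattern at a lower intensity. Young liver gave 298, 176, 88.4, 86.3, 188 and 359 from 0 to 20 h, and old liver 341, 149, 95.6, 126, 268 and 437. In both ages the 2 lowest values lay among the 8 and 12 h arrays and the highest at 20 h. The fitted amplitude was 1.01 ± 0.07 with a peak at 21.1 ± 0.3 h. The second Lgalsl probe was above background on too few arrays of any tissue to be tested, but its highest intensities, 18.9 in young and 25.6 in old liver, were also those of 20 h.

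Dnmt3b in liver ran a little earlier. Its intensity in young liver was 289, 183, 114, 157, 299 and 356 from 0 to 20 h, and in old liver 313, 149.8, 87.5, 130.2, 278 and 320.4. Both ages were lowest at 8 h and highest at 20 h, and unlike Clpx and Lgalsl the gene was already near its maximum at 16 h. The amplitude was 0.83 ± 0.07 and the peak 20.3 ± 0.3 h. The second Dnmt3b probe stayed close to background, with a highest liver intensity of 26.98 at 12 h in young mice. It did not show this pattern, with an amplitude of 0.23 ± 0.12 and a peak at 16.3 ± 2.1 h. A pseudogene of Dnmt3b, Dnmt3b-ps1, lies on the same chromosome, and whether the probes also read it was not tested.

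Lingo4 ran on another schedule, with its maximum in the trough of Clpx and Lgalsl or shortly after. Its brighter probe, annotated to the cDNA record AK042286, gave 70.7, 80.8, 117, 199.8, 216 and 107 in young liver and 62.3, 51.9, 109.9, 216, 206 and 149 in old liver. The 12 and 16 h arrays were the highest and the 0 and 4 h arrays the lowest in both ages. The amplitude was 0.85 ± 0.07 and the peak 14.2 ± 0.3 h. The other Lingo4 probe, annotated to the reference transcript, was near background in liver and reached its highest values, 25.4 in young and 28.7 in old mice, at 12 h, with an amplitude of 0.52 ± 0.12 and a peak at 12.3 ± 0.9 h.

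**Figure D1:**
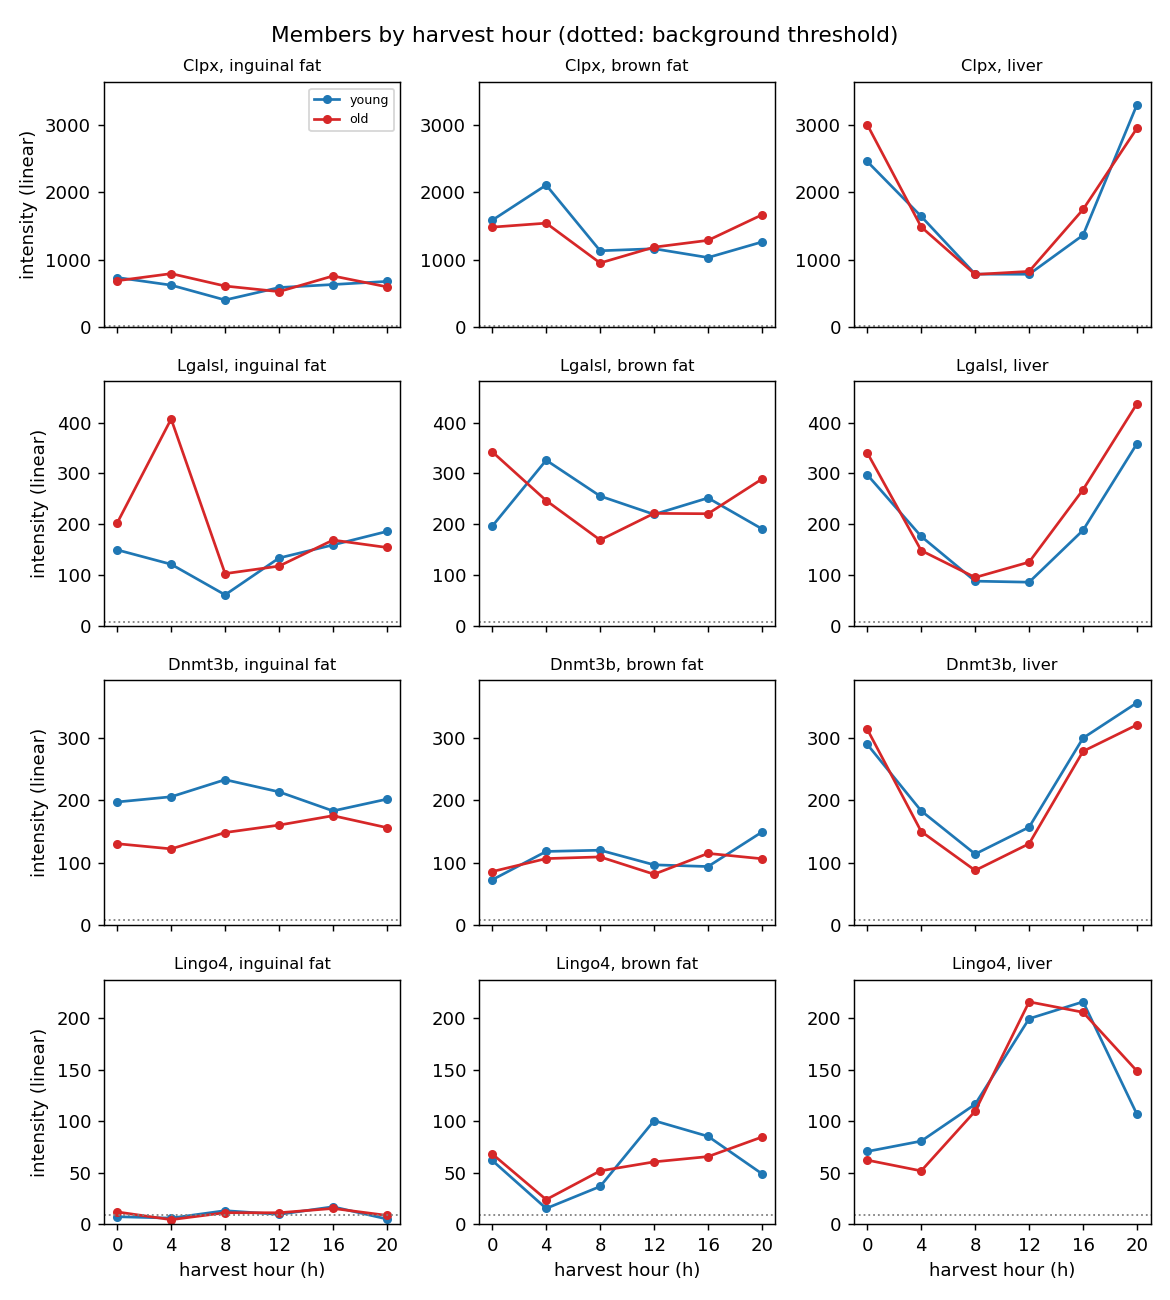
Intensity (linear scale) of the brighter probe of each member against harvest hour in h, with young arrays in blue, old arrays in red and 1 array for each point. Rows share a vertical scale and the dotted line is the background threshold of 8.80. Clpx in liver runs from 780.3 to 3303 while in inguinal fat it stays between 401 and 793.

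The liver patterns of Clpx, Lgalsl and Dnmt3b ran together and were close to that of Arntl. By Pearson correlation over the 12 liver arrays, which share hours and mice across genes, the named genes most like Clpx were the tubulin gene Tubb2b (r = 0.969), Lgalsl (0.966) and Hacl1, a peroxisomal lyase of fatty acid alpha-oxidation (0.964). Those most like Lgalsl were Clpx, Hacl1 (0.963) and Arntl (0.95). Dnmt3b was most like Arntl (0.966), the choline kinase gene Chka (0.944) and Ormdl3, a regulator of sphingolipid synthesis (0.934). Arntl itself peaked at 21.2 h in liver with an amplitude of 1.66. Lingo4 was most like the scaffold gene Homer2 (0.930), the phosphodiesterase gene Gde1 (0.925) and Mgll, a monoglyceride lipase (0.917), which peaked at 14.0, 13.9 and 14.9 h. Between Lingo4 and the other members r was -0.40 for Clpx, -0.20 for Lgalsl and -0.02 for Dnmt3b.

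Amplitude and peak are set side by side here for young and old livers, as a description. Fitted on each age, Clpx had amplitudes of 1.06 in young and 1.08 in old liver with peaks at 22.1 and 21.7 h, and Lgalsl 1.001 and 1.04 with peaks at 21.7 and 20.6 h. Dnmt3b had 0.76 and 0.91 with peaks at 20.2 and 20.4 h, and Lingo4 0.75 and 0.96 with peaks at 13.8 and 14.6 h. No test of these differences is given, since the liver rhythm chose the genes.

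In inguinal fat no member passed the rhythm test. By limma's moderated F test of the cosine and sine terms, with Benjamini-Hochberg adjustment over 15818 genes, 0 of 4 members passed an adjusted p of 0.05, and 0 of 4 had an unadjusted p under 0.05. The background was 0.0569% of all genes, or 9 genes, and 5.84% at the unadjusted threshold, so the test called few genes of any kind. Adjusted p-values of the members ran from 0.946 to 0.966.

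Clpx in inguinal fat gave 735, 622, 401, 586, 631 and 677 in young and 687, 793, 609, 526, 758 and 596 in old mice. The lowest arrays were those of 8 h in young and 12 h in old mice, and the ages did not share their highest hour. The second Clpx probe was lowest at 8 h in young (210) and at 20 h in old mice (270). It was highest at 4 h in young (329) and at 0 h in old mice (375), with an amplitude of 0.14 ± 0.08. The amplitude of the brighter probe was 0.20 ± 0.09, with a joint 95% interval from 0 to 0.47, against 1.07 in liver (interval 0.89 to 1.25). Without the 8 h arrays it was 0.12. At the liver's own peak hour the fitted inguinal value lay 0.20 (95% interval -0.004 to 0.41) above its mean on the log2 scale.

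Lgalsl in inguinal fat was 149.8, 122, 61.4, 134, 159.5 and 186 in young and 203, 407, 103, 118, 169 and 155 in old mice. Both ages were lowest at 8 h, and the old 4 h array stood above the rest. That array also had the highest skeletal muscle markers of the depot, a mean log2 level of 14.6. The brighter Clpx probe was highest there among old inguinal arrays (793). The second Clpx probe was not, with 307 there against 375 at 0 h and 318 at 16 h. The old 0 h and young 20 h arrays came next in muscle markers, at 13.8 and 13.3, with Lgalsl at 203 and 186. The young 12 h array followed at 12.7, with Lgalsl at 134, and the other 8 arrays had muscle levels of 7.07 to 9.88 with Lgalsl between 61.4 and 169. The part of muscle in these values was not tested. The young 8 h array, the lowest young array for Lgalsl and both Clpx probes, also differed in other markers. It had the lowest mean adipocyte level of the depot (11.45) and the highest lymphocyte (10.2) and macrophage (10.6) levels. The part of these cells in the low values was not tested. The amplitude of Lgalsl was 0.40 ± 0.19 (interval 0 to 0.94). Without both 8 h arrays it fell to 0.24 (adjusted p = 0.712), and without both 4 h arrays it was 0.48 (adjusted p = 0.578).

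Dnmt3b in inguinal fat showed no daily pattern beyond its error, with an amplitude of 0.10 ± 0.07 (interval 0 to 0.29) and a value of -0.03 (interval -0.18 to 0.11) at the liver's peak hour. Lingo4 was near background, at 7.31, 5.99, 13.2, 9.59, 16.97 and 5.07 in young and 11.97, 4.44, 11.2, 11.2, 15.4 and 8.59 in old mice. It lay above background on 3 young and 4 old arrays, and on the 16 h array it was highest in both ages. Its amplitude was 0.19 ± 0.08 (interval 0 to 0.42), with a fitted peak at 13.8 ± 1.7 h. With values below 16 set to 16 the amplitude was 0.014, with an offset of 32 it was 0.12, and without the 16 h and the 0 h arrays 0.11 and 0.28.

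In brown fat no member passed either, but Clpx and Lingo4 came nearer to it. By limma 0 of 4 members passed over 15815 genes, against a background of 0.221% of all genes, and 2 of 4 had an unadjusted p under 0.05, against 10.8% of all genes.

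Lingo4 in brown fat was lowest at 4 h in both ages. It gave 62.02, 15.4, 36.7, 101, 85.5 and 49.1 in young and 68.3, 23.95, 51.8, 60.6, 65.8 and 84.8 in old mice. The highest array was that of 12 h in young and of 20 h in old mice, so the ages shared the low point and not the high one. The amplitude was 0.57 ± 0.15 (interval 0.14 to 0.99), which is 67.0% of that in liver, with a peak at 16.4 ± 1.0 h (unadjusted p = 0.00952, limma adjusted p = 0.312). The fitted value at the liver's peak hour was 0.48 (95% interval 0.15 to 0.81). It rested in part on the 4 h arrays: without them the amplitude was 0.29 (adjusted p = 0.620). The other Lingo4 probe was above background on 3 of 12 brown fat arrays and was not tested there.

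Clpx in brown fat was 1586, 2108, 1132, 1163, 1031 and 1263 in young and 1483, 1542, 951, 1186, 1287 and 1666 in old mice. Values at 0 and 4 h exceeded those at 8 and 12 h in both ages. The amplitude was 0.32 ± 0.10 (interval 0.03 to 0.60), or 29.5% of that in liver, with a peak at 0.57 ± 1.24 h (unadjusted p = 0.0299, limma adjusted p = 0.409). The second Clpx probe was 943, 854, 636, 629.6, 661 and 771 in young and 876, 752, 675, 603, 629 and 795 in old mice. On this probe both ages were highest at 0 h and lowest at 12 h, with an amplitude of 0.28 ± 0.06 and a peak at 0.22 ± 0.87 h. When every probe was tested on its own, a choice made after seeing the data, it had an unadjusted p of 0.00288 and an adjusted p of 0.230.

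Lgalsl in brown fat was 196, 326, 256, 219.5, 252 and 191 in young and 343, 247, 169, 222, 221 and 289 in old mice. At 0 and 20 h, hours at which young values were lowest, old values were highest. Fitted on each age the peaks were 7.0 h in young and 22.3 h in old mice, with amplitudes of 0.22 and 0.38. This difference between ages had an unadjusted p of 0.0460 and did not pass (limma adjusted p = 0.920). Over both ages the amplitude was 0.15 ± 0.12 (interval 0 to 0.47). Dnmt3b had an amplitude of 0.01 ± 0.11 in brown fat (interval 0 to 0.31).

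**Figure D2:**
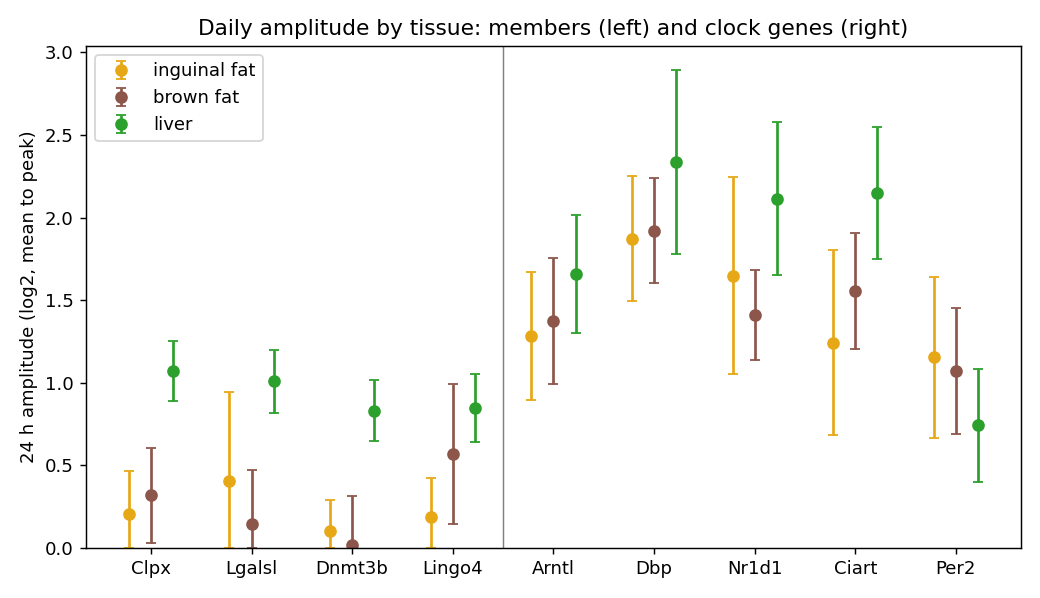
Fitted 24 h amplitude (log2, mean to peak) for the 4 members at left and 5 clock genes at right in inguinal fat (yellow), brown fat (brown) and liver (green). Points are fits over 12 arrays and bars are joint 95% intervals. The interval of Clpx reaches 0.47 in inguinal fat and 0.60 in brown fat and starts at 0.89 in liver, while Arntl stands at 1.28, 1.37 and 1.66.

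The clock itself could be followed in both fats on the same arrays. Of 13 clock and clock output genes tested in all 3 tissues, 2 passed the rhythm test in inguinal fat, 6 in brown fat and 11 in liver, where 2.02% of all genes passed. Their median amplitude was 0.76, 0.77 and 1.02, against 0.12, 0.15 and 0.14 for all genes tested. Arntl had amplitudes of 1.28 ± 0.14 in inguinal fat (adjusted p = 0.0251), 1.37 ± 0.14 in brown fat (adjusted p = 0.00283) and 1.66 ± 0.13 in liver by limma, with peaks at 22.5, 22.1 and 21.2 h. Dbp, a clock output factor, had amplitudes of 1.87, 1.92 and 2.34 and also passed in each tissue. Several clock genes with large amplitudes did not pass in inguinal fat, Per2 with 1.15 ± 0.17 among them (adjusted p = 0.102), so a missed threshold there says little about amplitudes of that size. For the members the intervals above give the sizes that the arrays allow.

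**Figure D3:**
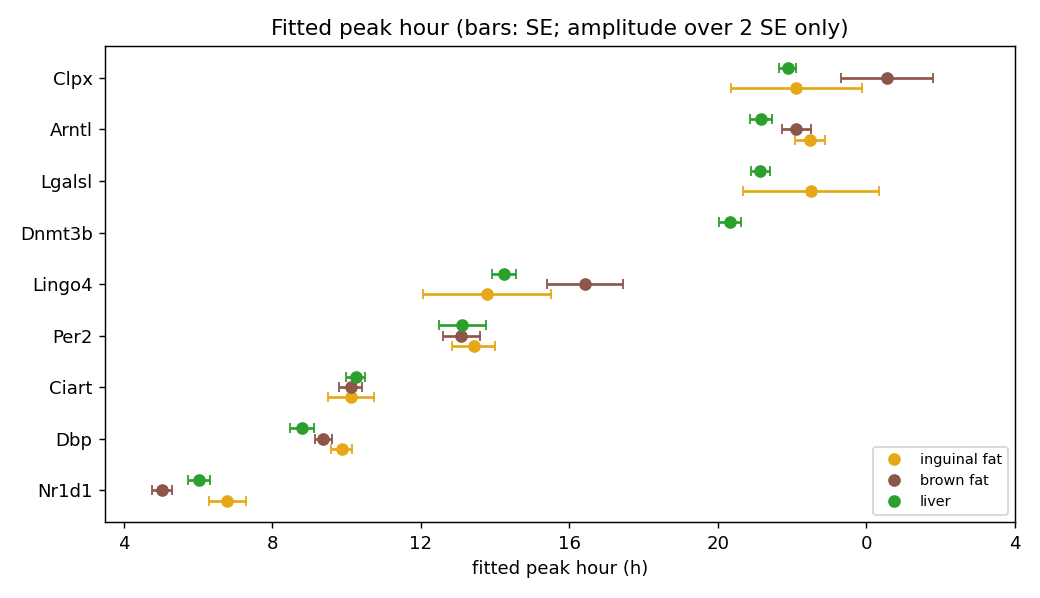
Fitted peak hour (h, running past midnight of the label scale) of the members and 5 clock genes in the 3 tissues, with bars for SE, drawn where the amplitude exceeds 2 SE. In liver Clpx, Lgalsl and Dnmt3b lie at 21.9, 21.1 and 20.3 h, around Arntl at 21.2 h, and Lingo4 at 14.2 h follows Per2 at 13.1 h.

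The difference of rhythm between the fats was tested on brown minus inguinal values of arrays matched by age and hour. By limma 0 of 4 members passed, and 0 of 4 had an unadjusted p under 0.05, where 0.00584% of 17115 genes passed and 4.79% had such an unadjusted p. Lingo4 came nearest, with a rhythm of the difference of 0.44 ± 0.16 (interval 0 to 0.88, unadjusted p = 0.0501, adjusted p = 0.906). This was 0.27 without the 4 h arrays, 0.66 without those of 16 h and 0.77 with values below 16 set to 16. The differences of rhythm with age gave 0 of 4 calls in each fat, with 0 of 4 unadjusted p-values under 0.05 in inguinal fat and 1 of 4, Lgalsl, in brown fat. Over all genes 0% passed in either fat, with 724 genes in inguinal and 749 in brown fat at an unadjusted p under 0.05 by limma.

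Age was compared at matched hours, to ask whether the level of these liver cyclers differs between 5 and 24 months. By limma, with hour as a factor, 0 of 4 members passed in inguinal fat, brown fat and liver, where 4.24%, 0.24% and 4.02% of all genes passed. In inguinal fat 3.01% of genes fell and 1.23% rose with age, in brown fat 0% and 0.24%, and in liver 0.607% and 3.41%. At an unadjusted p under 0.05 there was 1 of 4 in inguinal fat, and 0 of 4 in brown fat and in liver, against 24% (3803), 6.99% and 18.1% of all genes, so the inguinal count is near the background.

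The member nearest to an age difference was Dnmt3b in inguinal fat. From 0 to 20 h it gave 197, 205, 233, 213, 183 and 202 in young and 130.3, 122, 148, 160.0, 175 and 156 in old mice. Old values were lower at 6 of 6 hours and the age groups did not overlap, the highest old value being 175 and the lowest young value 183. Over all genes of inguinal fat 10.8% were lower in old mice at every hour, and 2.28% were lower without overlap. The difference, old minus young, was -0.43 ± 0.10 (SE) on the log2 scale, with an adjusted p of 0.0572. With hour left out of the fit it passed (adjusted p = 0.0238). Lymphocyte markers moved the same way on these arrays. Of 6 markers on the array 5 fell with age, none was absent from either age, and their summed intensity was 4511 to 12160.0 on young arrays, against 2596 to 5697 on old arrays. Among young arrays their mean log2 level and Dnmt3b were both lowest at 16 h (8.89 for the markers) and highest at 8 h (10.2). Among old arrays both were lowest at 4 h (7.96), but Dnmt3b was highest at 16 h, where the markers stood at 8.59, and the markers were highest at 20 h (9.13). The 4 macrophage markers measured had the same lowest and highest hours as the lymphocyte markers in both ages. Their mean log2 level ran from 9.68 to 10.6 on young and from 9.08 to 10.1 on old arrays. Of them 3 were lower in old mice and 1 higher, with 0 past the threshold. The part of lymphocytes or macrophages in the Dnmt3b difference was not tested.

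**Figure D4:**
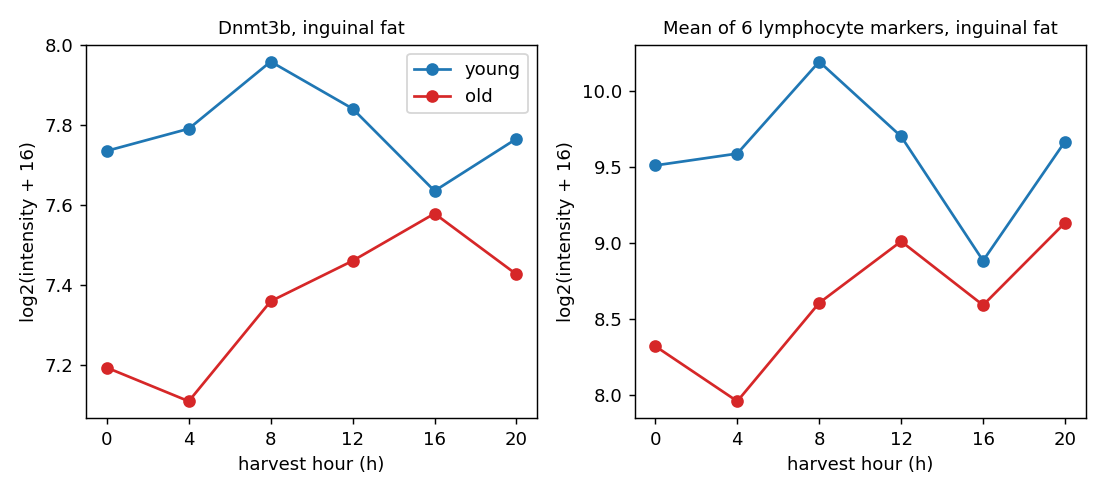
Dnmt3b (left) and the mean of 6 lymphocyte markers (right) in inguinal fat against harvest hour in h, both as log2(intensity + 16), with young arrays in blue, old arrays in red and 1 array for each point. Old values lie below young ones at 6 of 6 hours for Dnmt3b, whose mean was 7.79 in young and 7.35 in old mice.

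The Dnmt3b difference was -0.07 ± 0.12 in brown fat and -0.16 ± 0.09 in liver. Tested on matched arrays, a comparison added after seeing the data, the age effect in inguinal fat did not differ past the threshold from that in brown fat (difference 0.36 ± 0.15, limma adjusted p = 0.319) or in liver (0.27 ± 0.14, adjusted p = 0.280), where 0.0234% and 6.13% of genes passed. Between liver and brown fat it differed by -0.09 ± 0.13 (adjusted p = 0.840), where 0.342% passed. Clpx differed between ages by 0.13 ± 0.13 in inguinal fat, -0.01 ± 0.14 in brown fat and 0.07 ± 0.10 in liver, with 95% intervals from -0.16 to 0.41, -0.31 to 0.29 and -0.16 to 0.29. Lgalsl was 0.39 ± 0.23 higher in old inguinal fat and 0.21 ± 0.11 higher in old liver, higher at 4 and 5 of 6 hours, and neither passed (adjusted p = 0.356 and 0.360). Without the 4 h arrays the inguinal difference was 0.14. Lingo4 differed by 0.05 ± 0.09, 0.09 ± 0.17 and -0.04 ± 0.12 in inguinal fat, brown fat and liver.

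Mean levels over all hours and both ages differed between brown and inguinal fat for 4 of 4 members, and in each comparison with liver for 2 of 4. In all 3 comparisons limma was run on 12 pairs of arrays matched by age and hour, and brown against inguinal fat called 72.6% of genes, liver against inguinal fat 79.8% and liver against brown fat 70.9%, so a difference of level is the common case. Clpx was lowest in inguinal fat, with a mean log2 level of 9.33 against 10.40 in brown fat and 10.60 in liver. Brown fat exceeded inguinal fat by 1.07 ± 0.10 (2.10-fold, 12 of 12 pairs, adjusted p = 9.68e-08) and liver exceeded inguinal fat by 1.27 ± 0.18 (12 of 12 pairs, adjusted p = 1.01e-05). On this brighter probe liver and brown fat did not differ beyond their spread (0.20 ± 0.17, higher in liver in 6 of 12 pairs). The second Clpx probe had mean levels of 8.30 in inguinal fat, 9.54 in brown fat and 10.19 in liver. Its levels were not tested, so whether liver exceeded brown fat depends on the probe. Muscle markers were also higher in brown than in most inguinal arrays, and their part in the Clpx level was not tested.

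Lingo4 had the widest range on its brighter probe, with mean levels of 4.69 in inguinal fat, 6.13 in brown fat and 7.08 in liver. Each step passed, with 1.44 ± 0.13 between brown and inguinal fat (adjusted p = 7.66e-08) and 0.95 ± 0.14 between liver and brown fat (adjusted p = 1.48e-05, 11 of 12 pairs). The other Lingo4 probe, near background in each tissue, did not show these steps, with means of 4.53, 4.39 and 4.62. With Lingo4 near background in inguinal fat, the sizes of its differences from that tissue depend on the offset. Dnmt3b was lowest in brown fat, at 6.89 against 7.57 in inguinal fat and 7.78 in liver. Brown fat was below inguinal fat by -0.68 ± 0.09 in 12 of 12 pairs (adjusted p = 8.26e-06) and liver was above brown fat by 0.89 ± 0.17 (adjusted p = 2.43e-04), whereas liver and inguinal fat differed by 0.21 ± 0.18 (adjusted p = 0.280). Lgalsl was higher in brown than in inguinal fat by 0.62 ± 0.16 in 11 of 12 pairs (adjusted p = 0.00260). Its liver level of 7.69 lay between theirs and did not differ past the threshold from inguinal fat (0.31 ± 0.19, adjusted p = 0.143) or brown fat (-0.31 ± 0.19, adjusted p = 0.154).

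**Figure D5:**
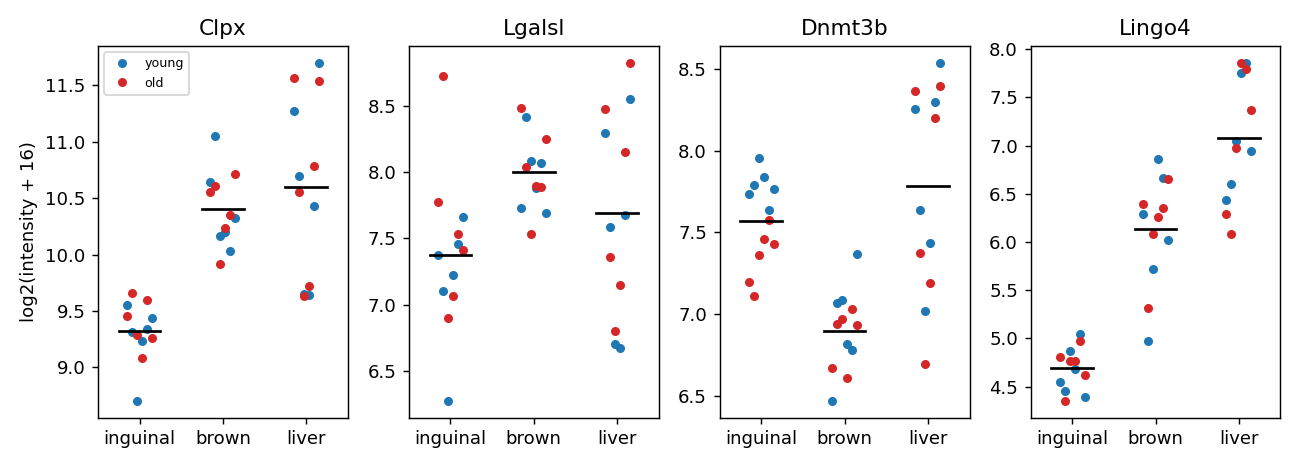
Level of the brighter probe of each member as log2(intensity + 16) on the 12 arrays of each tissue. Young arrays are in blue, old arrays in red and the mean is a black line. Points within a tissue run from 0 h at left to 20 h at right. Clpx has means of 9.33, 10.40 and 10.60 and Lingo4 of 4.69, 6.13 and 7.08 in inguinal fat, brown fat and liver.

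Lists of genes from the pathway or family of each member held 1 rhythmic gene in liver between them. They had 19, 9, 9, 8 and 6 genes tested there, so this is near the 2.02% of all genes that passed in liver. In inguinal and brown fat 0.0569% and 0.221% of all genes passed for rhythm. For age the shares over all genes were 4.24% in inguinal fat, 0.24% in brown fat and 4.02% in liver. Of 19 mitochondrial proteases and chaperones tested, 0 passed the rhythm test in liver, with a median amplitude of 0.11 against 0.14 over all genes. Clpp, the protease that CLPX feeds, had an amplitude of 0.04 (adjusted p = 0.894) and Lonp1, the other soluble matrix protease, 0.11 (adjusted p = 0.627). Of the 19 genes 1 changed with age in liver, Lonp1, which was lower in old mice by a log2 change of -0.46 (adjusted p = 0.0381). In both fats 0 of 19 passed for rhythm or age.

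Of 9 genes of heme synthesis and breakdown tested in liver, with Hmox1 for breakdown, 0 passed the rhythm test. Alas1, the rate-limiting enzyme of heme synthesis in liver, came to the edge of the threshold with an amplitude of 0.88. Its peak was at 13.1 h (adjusted p = 0.0502), while Clpx peaked at 21.9 h. Uros, a later enzyme of synthesis, had an amplitude of 0.22 (adjusted p = 0.155). In both fats 0 genes of this list passed for rhythm or age, of 8 tested in inguinal and 9 in brown fat, Hmox1 included.

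Among DNA methylation genes 1 of 9 passed the rhythm test in liver, Gadd45a, a stress response gene linked to demethylation, with an amplitude of 0.53 and a peak at 7.7 h (adjusted p = 0.0331). Dnmt1, the maintenance methyltransferase, had 0.06 (adjusted p = 0.855). In inguinal fat Gadd45a rose with age by 0.64 (adjusted p = 0.0237), the 1 call of 10 genes there, and Dnmt1 had a difference of -0.52, close to the threshold (adjusted p = 0.0525). The lymphocyte markers described above fell on these arrays, and their part was not tested. Of 8 genes tested in liver, galectins and the galectin-binding Lgals3bp, 0 were rhythmic, with Lgals9 nearest at 0.33 (adjusted p = 0.0962). With age 2 of these genes rose, Lgals3 by 1.06 (adjusted p = 0.00933) and Lgals1 by 0.70 (adjusted p = 0.00616). On the same liver arrays 4 of 4 macrophage markers were higher in old mice, 2 of them past the threshold, with summed intensities of 879 to 1397 in young and 1941 to 4242 in old liver and none absent. Lymphocyte markers were higher for 5 of 6, with 2 past the threshold. The part of these cells in the galectin and Lonp1 values was not tested. In inguinal fat Lgals7, a galectin of stratified epithelium, rose by 3.51 (adjusted p = 0.0470). Of 7 epithelium markers 6 were higher in old inguinal fat and 1 passed, with summed intensities of 25.3 to 1468 on young and 754 to 24857 on old arrays and Epcam never above background, and their part was not tested. Of 6 LINGO-related leucine-rich repeat genes tested in liver 0 were rhythmic, with Amigo2 nearest at 0.26 (adjusted p = 0.0804).

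Of the nearest protein-coding genes on each side of a member, 5 were measured, and 0 of them passed the rhythm test in any tissue. The share over all genes was at most 2.02%, that of liver. Commd7, 16615 bases from Dnmt3b on the other strand, had a liver amplitude of 0.26 ± 0.06 with a peak at 21.1 ± 0.9 h (adjusted p = 0.118) and correlated with Dnmt3b at r = 0.823 over 12 liver arrays. Mapre1, on the other side of Dnmt3b, had an amplitude of 0.01 ± 0.06. Tdrkh, 8741 bases beyond Lingo4, had 0.03 ± 0.09, and Aftph and Peli1, the genes next to Lgalsl, had 0.12 ± 0.07 and 0.15 ± 0.07.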

How the data were processed

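Inguinal fat, brown fat and liver of young and old male mice were hybridised to bead arrays. The deposited values are intensities, and the submitters' processing notes name BeadStudio without a version. How the background was removed and the arrays scaled is not given in the sources used here, but 28.7 to 29.1% of values lay below 0 and the sorted columns were nearly alike. Because all tissues were brought to this 1 distribution, differences between tissues are relative to it. A scanner table with 36 arrays in 144 columns was not used, since its column names carry no age and no hour.

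Negative values became 0, and log2 was taken after adding 16. The noise SD from negative values mirrored at 0 was 5.35, and its 95% point, 8.80, was the background threshold. Probes above it on at least 6 of 12 arrays of a tissue were tested, 1 probe per gene symbol, the brightest (34885 probes have 1 symbol in the platform annotation, 18 several and 10378 none, and the latter were tested as genes of their own). limma 3.58.1 in R 4.3.3 (lmFit, eBayes) gave the moderated F test of cosine and sine terms of 24 h with age in the model, the 2-sided age test with hour as a factor, and tests on matched arrays between tissues. P-values were adjusted by Benjamini-Hochberg over all genes tested, with a threshold of 0.05. The joint 95% interval of an amplitude comes from the F region of both coefficients. Hours pair 1 young with 1 old array of each tissue by label. The scripts were tested on simulated data.

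Members, gene lists and tests were chosen with earlier results of these data known. Genes named beside the members are the 3 most correlated in liver, the nearest measured neighbours and genes of lists. The lists cover the clock, mitochondrial proteolysis, heme synthesis and breakdown, DNA methylation, galectins with the galectin-binding Lgals3bp, and LINGO-related proteins. Of each list the first few genes, the nearest to the threshold and those past it were named after their values were seen. Marker lists covered hepatocytes, adipocytes, brown adipocytes, muscle, epithelium, lymphocytes and macrophages. No count depth applies to arrays, and their number limits the precision.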

Additional observations from a re-analysis of the deposited data

How the results depend on the processing

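The member counts were 0 of 4 for rhythm in inguinal fat, brown fat and their difference, and 0 of 4 for age in brown fat and liver, under every alternative run (offset 32, values below 16 set to 16, no filter, mean of probes, an intensity trend, hour as 6 levels, 1 age alone, and without each hour, as far as each applied). With no replicate block for hour, the age count in inguinal fat was 1, Dnmt3b, in a fit that called 939 genes against 670. Members that differed in level were 4 of 4 between the fats under every alternative, and 2 of 4, or 3 without certain hours, in each comparison with liver. Without 4 h Lgalsl differed in level between liver and inguinal fat (0.46, adjusted p = 0.0181), without 8 h Dnmt3b did so (0.42, adjusted p = 0.0262), and without 20 h Lgalsl differed between liver and brown fat (-0.51, adjusted p = 0.0156). Small uncalled age effects turned sign: Lingo4 in inguinal fat to -0.014 with values under 16 set to 16, Lingo4 in liver to 0.014 with the mean of probes and 0.049 without 4 h (from -0.14 to 0.049 over the hours left out), Lingo4 in brown fat to -0.018 without 20 h (-0.018 to 0.23), Clpx in brown fat to 0.0087, 0.079 and 0.039 without 0, 4 and 8 h (-0.089 to 0.079), and Lgalsl in brown fat to -0.11 and -0.068 without 0 and 20 h (-0.11 to 0.15). Age effects moved by over 1.5 times under some alternative for each member and tissue other than Dnmt3b in inguinal fat and Lgalsl in liver, for Clpx in inguinal fat to 0.083 and 0.035 without 4 and 8 h. Counts over all genes moved more. Rhythmic genes in inguinal fat were 9, and 5 with offset 32, the mean of probes or the trend, 1 with values under 16 set to 16, and 0 with no filter, hour as 6 levels or either age alone (0 to 12 without an hour). In brown fat they were 35, and 19 with values under 16 set to 16, 15 with no filter, 6 with hour as 6 levels and 0 with either age alone (7 to 25). The number of genes called by age with no filter was 80 in inguinal fat (main count 670), 1 in brown fat (38) and 167 in liver (636), and it was 4 in brown fat with values under 16 set to 16. Without an hour they ranged from 0 to 408, 3 to 57 and 281 to 422. The 1 gene with a rhythm of the difference between fats was lost under every alternative (0). Causes were not tested. Probes near background (Lingo4 in inguinal fat, the second probes of Lgalsl, Dnmt3b and Lingo4) limit what can be said there.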
